A study of Mus musculus with 8 samples.

Results

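The nuclear end of Notch signalling was examined through 8 genes: the receptors Notch1, Notch2, Notch3 and Notch4, the DNA-binding protein Rbpj, and the Mastermind-like coactivators Maml1, Maml2 and Maml3. They were taken by symbol and are 8 of the 32285 genes counted. Maml3 was selected on its measured difference between genotypes in these libraries, so its genotype values are given as a description with no test. The other members came with it as its family and partners. Index type, cell type and sex were not used to choose them, though earlier results of these data were known.

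The data were RNA counts from single nuclei of the cerebral cortex of 8 C57BL/6J mice at postnatal day 25, with the medial cortex removed and the tissue flash-frozen. The 4 groups of 2 animals each, wild-type (WT) males, WT females, Chd8 heterozygous (Chd8het, Chd8+/-) males and Chd8het females, gave 1 library per animal. The labels speak of 4 pairs of a WT and a Chd8het animal matched for litter and sex, and give neither the pairing of libraries nor the Chd8 allele. Replicate 1 of each group carried a single sample index and replicate 2 a dual index, so each genotype and sex holds both index types, while index type cannot be told apart from replicate number, and possibly not from litter.

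Notch receptors are surface proteins that are cut after they meet a Delta or Jagged ligand on a neighbouring cell, and the freed intracellular part enters the nucleus. There it joins Rbpj on DNA and recruits a Mastermind protein, which brings in histone acetyltransferases, and genes of the Hes and Hey families are switched on. Without the receptor fragment Rbpj sits with corepressors. The pathway is known for keeping neural progenitors and glial precursors undifferentiated and for shaping vessel walls, and Chd8 encodes a chromatin remodeller.

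The files held 69503598 to 98132783 unique molecular identifiers (UMIs, each standing for 1 captured RNA molecule) per library. After filters 77655 nuclei were kept, 7450 to 10959 per library, and 39723 of them (51.2%) received a cell type from their own marker genes, none of which is a member. The pooled excitatory neurons (33534 nuclei) and pooled interneurons (5196) used below are larger sets, which also hold nuclei that passed these broad markers but received no finer type. The pooled interneurons hold, besides, 75 nuclei with striatal markers. Levels are given for 17 types, and genotype and index type were fitted in the 14 whose smallest library still had 30 nuclei. L5 extratelencephalic (ET) neurons, L6b neurons and mural cells (16 to 49 nuclei per library) fell short, and the contrasts of Notch3 and Notch4 with mural cells below rest on these few nuclei. A type name means resemblance by markers, and each of the 17 types had 2 to 7 of its own markers among its 10 leading genes. The same markers formed the types, so this count describes them and does not test their names. A count of 1 marker fewer would have ended the call for between 12.9% (microglia) and 95.4% (L4/5 IT) of the nuclei of a tested type, so neighbouring neuronal types are ranges and not sharp classes. Libraries shared 18 to 36 barcodes with each other. Chd8 itself was at 75.0 to 81.6 CPM in WT and 75.9 to 89.7 CPM in Chd8het libraries over all nuclei, which is a change of -0.01 on the log2 scale (standard error, SE, 0.06; edgeR quasi-likelihood test, Benjamini-Hochberg adjusted p 0.996); these counts do not separate alleles. Levels below are CPM, the gene's UMIs per 1000000 UMIs summed over the nuclei of that type in that library, as mean ± SD over the 8 libraries unless stated. Values per library are listed as WT male 1, male 2, female 1 and female 2, then Chd8het in the same order, where 1 is single-indexed and 2 dual-indexed.

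Notch1, the receptor best known from neural stem cells and glia, was highest in vessel cells, astrocytes and oligodendrocyte precursors (OPC) and near the floor in neurons. Its level was 122 ± 49.8 CPM in mural cells and 109 ± 60.0 CPM in endothelial cells, on only 64 and 100 UMIs. Astrocytes held 85.9, 66.4, 88.4 and 59.4 CPM in WT and 62.8, 55.8, 83.6 and 81.6 CPM in Chd8het libraries (73.0 ± 13.2). OPC held 56.7, 49.2, 61.9 and 43.0 CPM in WT and 58.8, 51.8, 58.0 and 40.2 CPM in Chd8het libraries (52.5 ± 7.81). The genotypes overlapped in both, and so did neighbours in the order from mural to endothelial cells, astrocytes and OPC. All 8 OPC values lay above all 8 values of committed oligodendrocyte precursors, the next stage of the lineage, which had 19.8 ± 9.84 CPM. Pooled excitatory neurons had 1.15 CPM. Within libraries Notch1 was higher in astrocytes than in excitatory neurons by 5.96 ± 0.53 on the log2 scale, in 8 of 8 libraries (exact sign-flip permutation test, two-sided, p 0.00781, the smallest it can give, adjusted p 0.0156 over the 8 contrasts, 1 for each member). Astrocytes carried 45.3% and OPC 19.7% of the Notch1 UMIs of all typed nuclei, while the same types carried 4.7% and 2.8% of all UMIs.

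Notch2, the receptor whose human counterpart is tied to vessel and skeletal development, was highest in vascular leptomeningeal fibroblasts, the collagen-making cells of the meninges and large vessels. There it was at 249.6, 349.7, 266.9 and 281.4 CPM in WT and 257.5, 295.6, 359.6 and 367.6 CPM in Chd8het libraries (303.5 ± 48.3). All of these lay above all values of microglia, the second in the order at 99.5 ± 14.5 CPM. Astrocytes followed with 87.1 ± 10.6 CPM, overlapping microglia and separate from mural cells at 22.7 ± 21.5 CPM on 14 UMIs. Excitatory neurons held 3.54 CPM. The step from excitatory neurons to astrocytes was 4.62 ± 0.24 on the log2 scale, seen in 8 of 8 libraries (exact sign-flip permutation test, p 0.00781, adjusted p 0.0156).

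Notch3, the receptor of vascular smooth muscle cells and pericytes, was highest in mural cells. Mural cells held 835.5, 594.6, 932.1 and 816.7 CPM in WT and 606.1, 954.2, 503.7 and 1111 CPM in Chd8het libraries (794 ± 209). Endothelial cells, second in the order, held 38.8 ± 31.4 CPM, with 1 library at 0. Every mural value lay above every endothelial value. The within-library difference was 4.12 ± 0.82 on the log2 scale, mural higher in 8 of 8 (exact sign-flip permutation test, p 0.00781, adjusted p 0.0156). Among neurons the highest mean of a tested type was in MGE interneurons, the parvalbumin and somatostatin lineage, at 19.1 ± 4.84 CPM on 545 UMIs. Their values were 16.6, 22.5, 11.1 and 25.0 CPM in WT and 16.5, 21.0, 15.9 and 24.3 CPM in Chd8het libraries, and all 4 dual-indexed libraries lay above all 4 single-indexed ones. The same held for 7.97% of all genes tested in that type. Mural cells carried 14.5% of the typed Notch3 UMIs on 0.2% of all UMIs, while L2/3 IT neurons carried 27.0% on 31.0% and MGE interneurons 18.3% on 9.5%.

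Notch4, known as the endothelial receptor, had the thinnest data, 97 UMIs in endothelial cells. Those gave 63.5, 207.6, 50.2 and 112.7 CPM in WT and 105.5, 49.3, 73.6 and 103.5 CPM in Chd8het libraries (95.7 ± 51.7), with no order by genotype or index type. Mural cells had 26.2 ± 19.5 CPM on 13 UMIs and microglia 12.6 ± 5.49 CPM on 88 UMIs. Endothelial cells were above mural cells in 7 of 8 libraries, by 0.98 ± 0.91 on the log2 scale, which did not pass adjustment (exact sign-flip permutation test, p 0.0391, adjusted p 0.0625). Under 3 of the alternatives given at the end it passed, at 1.124 to 1.762, so the call depends on processing. No neighbours in the Notch4 order had separate ranges. By share of UMIs, endothelial cells held 26.0% and microglia 23.6% of the Notch4 counts of typed nuclei.

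**Figure D1:**
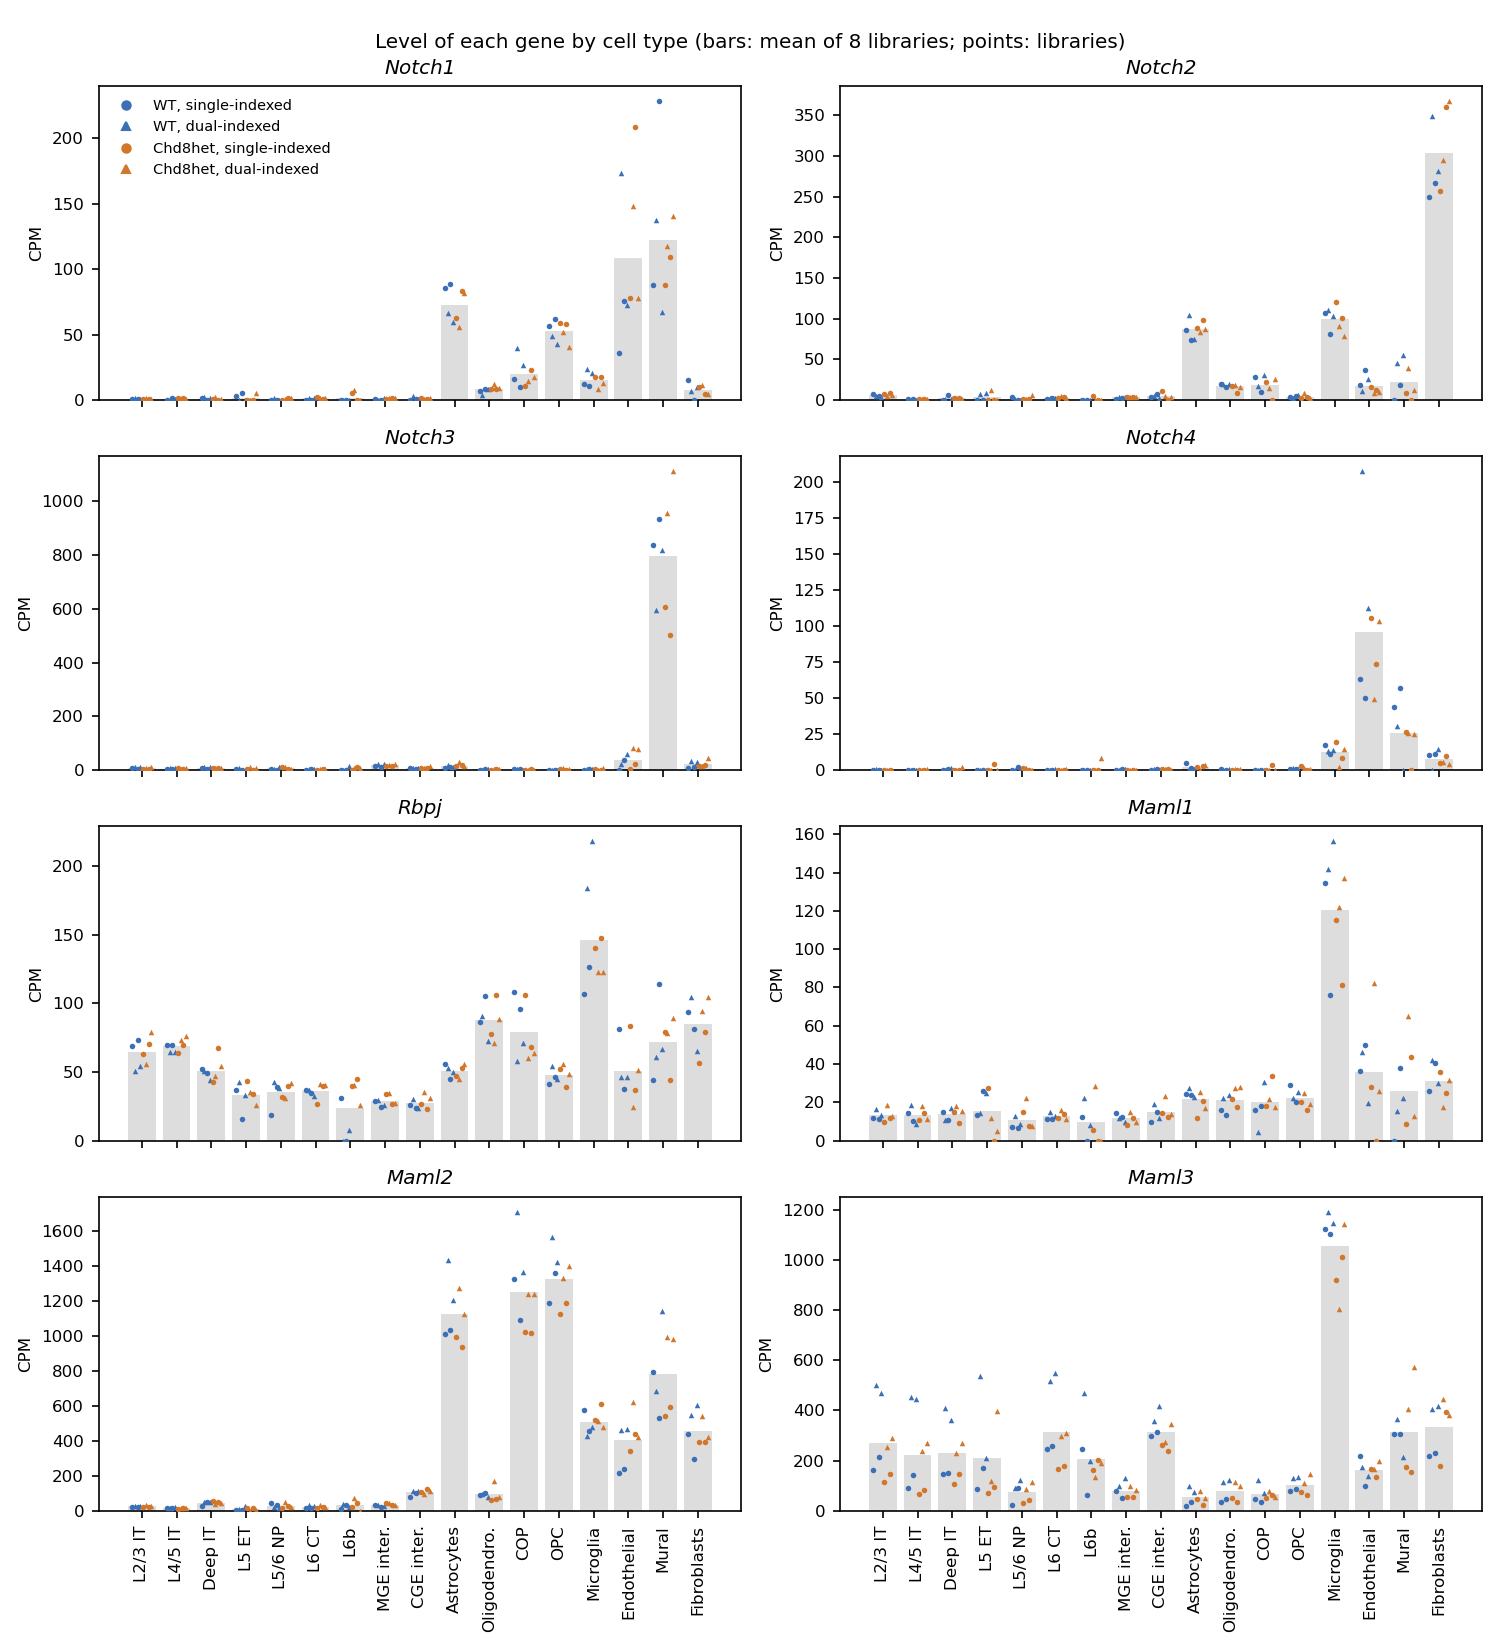
Level of each of the 8 members (CPM, linear axis from 0) in 17 cell types named by marker genes. Bars are the mean of 8 libraries and points single libraries, blue for WT and orange for Chd8het, circles for single and triangles for dual index. Notch3 stands in mural cells at 794 CPM, Notch2 in leptomeningeal fibroblasts, Maml2 in OPC, committed precursors and astrocytes, and Maml3 in microglia at 1056 CPM with separated circles and triangles in the excitatory types.

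Rbpj, the DNA-binding partner shared by all 4 receptors, was counted in every type. Microglia were highest with 107.2, 183.9, 126.8 and 218.2 CPM in WT and 140.4, 122.9, 147.5 and 122.8 CPM in Chd8het libraries (146 ± 37.1). These values were all above those of oligodendrocytes, next at 87.6 ± 13.5 CPM. Below that no neighbours in the order were separate. L4/5 IT neurons, the intratelencephalic cells of the middle layers, were steady at 68.8 ± 4.35 CPM, while CGE interneurons, the vasoactive intestinal peptide and Lamp5 lineage, held 27.5 ± 4.36 CPM and L6 corticothalamic (CT) neurons 36.1 CPM. Astrocytes and excitatory neurons, which differed in Notch1 and Notch2, had 50.5 and 55.3 CPM of Rbpj. That within-library difference was -0.10 ± 0.14 on the log2 scale, with astrocytes higher in 2 of 8 libraries (exact sign-flip permutation test, p 0.0781, adjusted p 0.0893).

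The 3 Mastermind-like genes encode coactivators that contact both Rbpj and the receptor fragment, and each had its own pattern of cell types. Maml1 was highest in microglia, at 134.7, 141.7, 76.1 and 156.4 CPM in WT and 115.3, 121.9, 81.2 and 137.4 CPM in Chd8het libraries (121 ± 28.7). Both female single-indexed libraries were the low ones. Endothelial cells came next at 36.0 ± 24.4 CPM on 35 UMIs, and no neighbours in the Maml1 order were separate. Excitatory neurons and interneurons held 13.1 and 13.4 CPM, a within-library difference of -0.08 ± 0.12 on the log2 scale (exact sign-flip permutation test, p 0.117, adjusted p 0.117).

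Maml2 was highest in OPC, committed precursors and astrocytes. OPC had 1188, 1568, 1362 and 1425 CPM in WT and 1127, 1333, 1189 and 1401 CPM in Chd8het libraries (1324 ± 148). Committed precursors had 1253 ± 227 CPM and astrocytes 1128 ± 169 CPM, and these 3 types overlapped. Oligodendrocytes, the mature end of that lineage, had 93.3 ± 34.1 CPM, and L4/5 IT neurons 16.0 ± 3.49 CPM. Interneurons were above excitatory neurons in 8 of 8 libraries, with 58.7 against 23.8 CPM and a log2 difference of -1.35 ± 0.33 for excitatory minus interneurons (exact sign-flip permutation test, p 0.00781, adjusted p 0.0156). Astrocytes carried 35.5% and OPC 25.0% of the typed UMIs of Maml2.

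Maml3 was highest in microglia and was well counted in neurons. Microglia had 1124, 1193, 1102 and 1149 CPM in WT and 919.4, 802.6, 1013 and 1142 CPM in Chd8het libraries (1056 ± 134). All of these were above all values of leptomeningeal fibroblasts, next at 334 ± 105 CPM. Below them no neighbours in the order of the means were separate, down to L6 CT neurons (315 ± 144), CGE interneurons (312.5 ± 58.7), L2/3 IT neurons (269 ± 145) and, near the end, astrocytes (53.7 ± 28.3). The order of these means differed by index type. Means of the single-indexed libraries were 276.7 CPM in CGE interneurons, 256 CPM in fibroblasts, 211 CPM in L6 CT and 160 CPM in L2/3 IT neurons. Those of the dual-indexed libraries were 348 CPM in CGE interneurons, 412 CPM in fibroblasts, 419 CPM in L6 CT and 379 CPM in L2/3 IT neurons. Excitatory neurons were above interneurons in 6 of 8 libraries, by 0.39 ± 0.43 on the log2 scale, which did not pass the test (exact sign-flip permutation test, p 0.0547, adjusted p 0.0729). That difference was -0.16 to 0.37 in single- and 0.44 to 0.99 in dual-indexed libraries. With nuclei named by clusters it was 0.604 and passed. Microglia held 10.5% of the typed Maml3 UMIs on 2.5% of all UMIs.

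Counts of nuclear RNA rise with the length of a gene where introns are counted, and whether they were is not given in the sources used here, so the paralogues are set against each other per kb of gene span. Maml1 spans 36.7 kb, Maml2 411.4 kb and Maml3 419.2 kb. In excitatory neurons the level per kb was 0.356 ± 0.0694 CPM for Maml1, 0.0577 ± 0.0159 CPM for Maml2 and 0.579 ± 0.321 CPM for Maml3. The means of Maml3 there, before division by span, were 138.7 CPM in single- and 346.5 CPM in dual-indexed libraries. The order of Maml1 and Maml3 was not tested. In microglia it was 3.29, 1.23 and 2.52 CPM per kb in the same order, and in OPC 0.600, 3.22 and 0.246 CPM per kb. Per kb of span Maml2 was thus the leading paralogue in OPC and astrocytes (2.74 CPM per kb) and the lowest in excitatory neurons and microglia. That lowest place holds only per kb of span. In plain CPM Maml1 was the lowest in both, at 13.1 against 23.8 CPM for Maml2 in excitatory neurons and 121 against 507 CPM in microglia.

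On GRCm38 (GENCODE M21) the members lie at chr2:26457903-26516663 on the minus strand (Notch1), chr3:98013527-98150361 plus (Notch2), chr17:32120820-32166852 minus (Notch3), chr17:34564268-34588503 plus (Notch4), chr5:53466152-53657362 plus (Rbpj), chr11:50255634-50292311 minus (Maml1), chr9:13297957-13709388 plus (Maml2) and chr3:51685907-52105076 minus (Maml3). All are protein coding, with the identifiers ENSMUSG00000026923, ENSMUSG00000027878, ENSMUSG00000038146, ENSMUSG00000015468, ENSMUSG00000039191, ENSMUSG00000050567, ENSMUSG00000031925 and ENSMUSG00000061143 in the same order. Counted genes on the opposite strand overlap 6 of them, all but Notch2 and Notch4. Whether strand was used in counting is not given in the sources used here, so the members' reads and those of their antisense genes may not be fully told apart. For Maml3 these are Gm37229 (chr3:51812951-51819309) and Gm20089 (chr3:51980941-51990075), both in introns.

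Across the 17 types, members followed each other only in part. As a description over means that share the same 8 libraries, Pearson's r of mean log2 CPM was 0.82 for Notch1 with Maml2, 0.81 for Notch1 with Notch4 and 0.79 for Notch2 with Maml1, against -0.08 for Notch1 with Maml3 and -0.04 for Maml2 with Maml3. Among 16559 genes with at least 5 CPM in at least 1 type, the profiles closest to Maml3 were those of its own antisense gene Gm37229 (r 0.926), of Dtx4 (0.827), which encodes a Deltex-family ubiquitin ligase of Notch turnover, and of Synj1 (0.821). The closest to Notch1 were Mfge8 (0.967), S100a1 (0.966) and Zfp24 (0.963). Those closest to Notch3 were Gm21691, Lyrm7 and Gm48420 (0.927, 0.918 and 0.91), and to Notch4 were Gbp5, Def6 and 0610010K14Rik (0.991, 0.989 and 0.989).

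Target genes were read in the types where the receptors are highest. The Hes and Hey genes encode transcriptional repressors and Nrarp a feedback inhibitor of the receptor complex. Hes5 was at 55.3 ± 10.9 CPM in astrocytes and 43.8 ± 8.02 CPM in OPC, and at 11.8 CPM in mural and 10.4 CPM in endothelial cells. In these 2 vessel types Notch1 had its highest means, on 64 and 100 UMIs and with ranges that overlapped astrocytes. Hes1 was at 97.3 ± 53.7 CPM in endothelial cells, 70.6 CPM in mural cells, 36.6 ± 8.35 CPM in astrocytes and 24.6 CPM in OPC. Hey2 (84.4 ± 56.8 CPM) and Heyl (54.5 CPM) were highest in mural cells, and Hey1 (25.5 CPM) in endothelial cells. Nrarp had 23.8 CPM in mural cells and 11.5 CPM in astrocytes. Mural and endothelial cells carried only 0.2% and 0.3% of all UMIs of typed nuclei, so the target levels there rest on few counts.

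Rbpj binds the letters GTGGGAA, and a search for them on both strands of the 250 bases before each gene's start (RefSeq, GRCm38.p6) found them in the windows of Hes5, a target at its highest in astrocytes, and of Hey2, a target at its highest in mural cells. These windows are shown to set the letters beside those levels, with GTGGGAA, or its reverse complement TTCCCAC, in capitals; no other motif was searched. Hes5 is read at chr4:154960673-154960922 on the plus strand and has the letters at 2 places, first bases at -226 and -83 from the start. Hey2 is read at chr10:30842784-30843033 on the minus strand and has them once, at -207.
Hes5: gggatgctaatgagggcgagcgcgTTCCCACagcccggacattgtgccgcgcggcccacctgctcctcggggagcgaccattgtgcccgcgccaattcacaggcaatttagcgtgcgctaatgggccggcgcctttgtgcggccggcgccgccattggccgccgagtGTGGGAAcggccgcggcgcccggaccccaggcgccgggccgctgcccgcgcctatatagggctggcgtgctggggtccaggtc
Hey2: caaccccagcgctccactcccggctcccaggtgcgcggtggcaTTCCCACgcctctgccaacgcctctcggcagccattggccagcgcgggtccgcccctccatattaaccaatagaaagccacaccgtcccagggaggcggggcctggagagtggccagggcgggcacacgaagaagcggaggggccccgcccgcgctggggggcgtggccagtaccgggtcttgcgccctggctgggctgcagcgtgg
The letters occurred in 1779 of 32851 windows (5.42%). A window was found for 54 of the 66 member and pathway genes. These had 71 windows, and 5 windows held the letters, 1 each for Psen2, Lfng, Spen, Hes5 and Hey2. Of the 6 targets 3 had a window, Hes5, Hey2 and Nrarp, and that of Nrarp did not hold the letters. None of the 8 members' own windows held them, which says only that these letters are not in these 250 bases. A match is not a measured binding site.

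**Figure D2:**
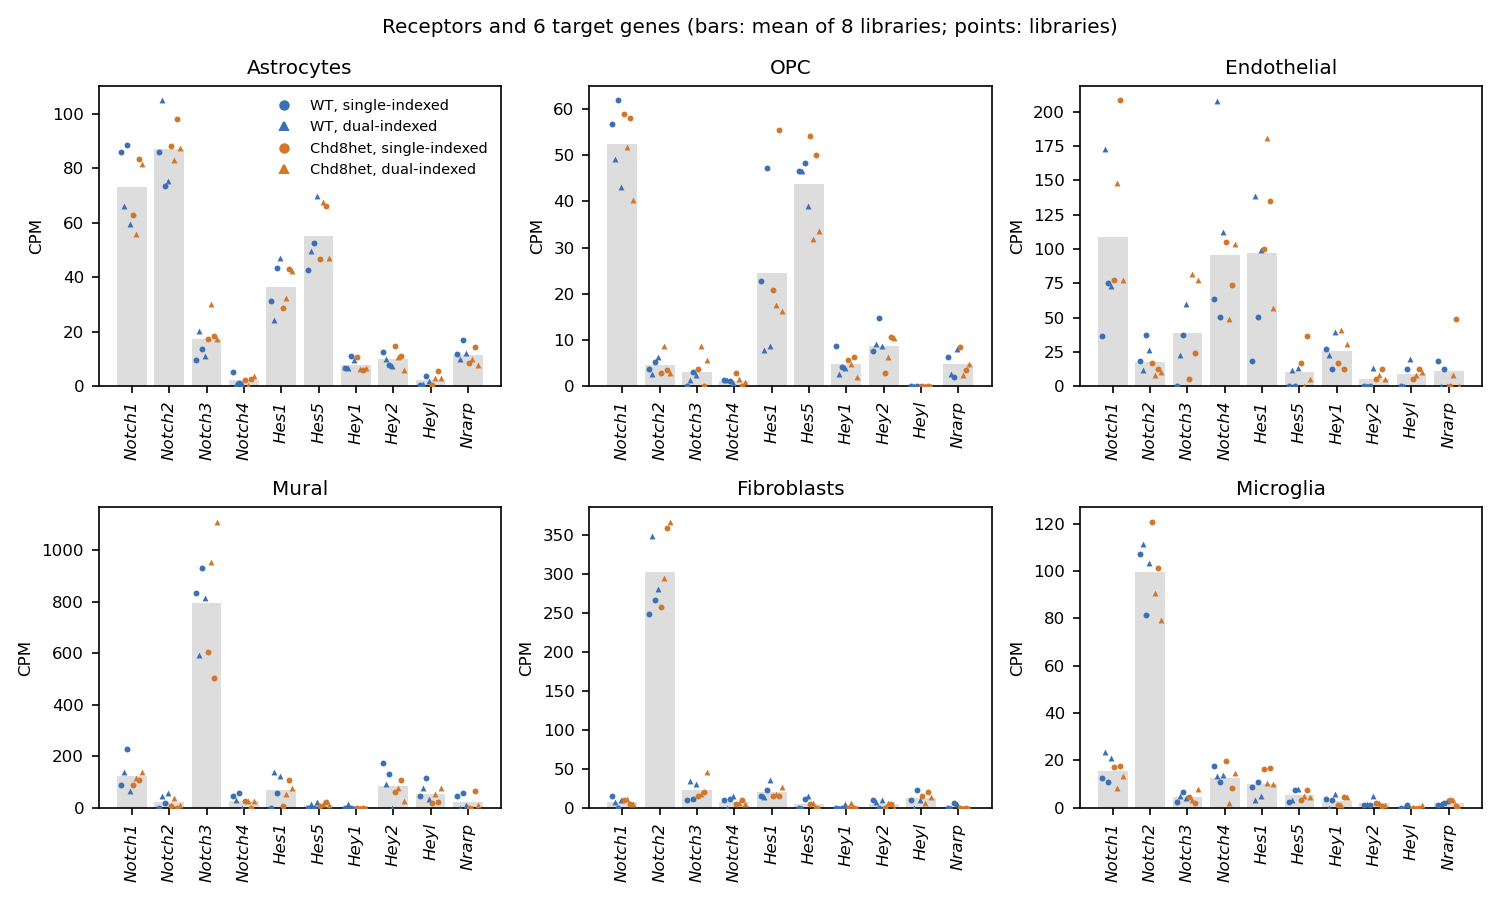
Levels (CPM) of the 4 receptors and of the targets Hes1, Hes5, Hey1, Hey2, Heyl and Nrarp in astrocytes, OPC, endothelial cells, mural cells, leptomeningeal fibroblasts and microglia. Bars are means and points the 8 libraries, coloured by genotype. Hes5 is highest in astrocytes and OPC and low in mural and endothelial cells. There the means of Notch1 are highest, on few UMIs and with ranges that overlap astrocytes. Hey2 (84.4 CPM), Heyl and Notch3 are highest in mural cells.

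The genotype comparison asked whether any member differed between WT and Chd8het nuclei of the same type. For the 7 members other than Maml3 the 61 tests over the 14 types gave 0 calls at adjusted p under 0.05 by the edgeR quasi-likelihood test with index type and sex in the model. Unadjusted two-sided p was under 0.05 in 2 of the 61, and DESeq2 called 0 with 1 under 0.05 unadjusted, beside 66 of the 113545 tests over all genes to which it gave an adjusted p (0.0581%). Over all genes, 17 of 151334 tests (0.0112%) were called in the 14 types and 0 of 21901 (0.0%) in all nuclei, so the background was itself almost empty. With a term for each pair of the same sex and replicate number in place of sex and index type, 0 of the 61 were called and 19 of 151334 (0.0126%) over all genes. Of 200 genes changed in simulated counts, 100 by a log2 change of 1 and 100 by 0.5, 72 and 38 were recovered in L6 CT neurons, with 13 false calls, and 76 and 11 in astrocytes, with 9 false calls. In endothelial cells 0 of 100 were recovered at either size, with 0 false calls, so genotype changes of these sizes were not detectable there at this depth. The changed genes were drawn at random from all genes that passed the count filter, and not at the counts of the members. The recovered shares are thus not those of the members. Notch1 in L6 CT neurons, for example, had 65 UMIs and an SE of 0.46.

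The fitted genotype changes (Chd8het minus WT, log2) ran from -0.20 to 0.72 over the 7 types where Notch1 passed the count filter and from -0.34 to 0.47 over the 7 of Notch2. They ran from -0.28 to 0.62 over the 8 types of Notch3, and were -0.35 and -0.28 in the 2 types of Notch4. For Rbpj they stayed between -0.20 and 0.15 over 13 types, for Maml1 between -0.41 and 0.31 over 10, and for Maml2 between -0.29 and 0.43 over all 14. The smallest unadjusted p was that of Maml2 in MGE interneurons, at 32.6, 31.3, 19.0 and 27.5 CPM in WT and 43.7, 43.5, 31.5 and 34.2 CPM in Chd8het libraries. The fitted change was 0.42 log2 units (SE 0.12), with an adjusted p of 0.531 (edgeR quasi-likelihood with Benjamini-Hochberg), far from the threshold. The other test under 0.05 unadjusted was Notch3 in astrocytes, at 9.83, 20.2, 13.7 and 10.97 CPM in WT and 17.4, 30.1, 18.4 and 17.5 CPM in Chd8het libraries, with overlap (0.62, SE 0.23, edgeR adjusted p 0.965). Within both index types at once, WT and Chd8het values did not overlap in 1 of the 61 with Chd8het lower (Maml2 in committed precursors) and in 3 with Chd8het higher (Notch2 in MGE interneurons, Maml1 in oligodendrocytes, Maml2 in L2/3 IT). The background for all genes was 2.42% lower and 3.41% higher, so these counts are near it. Sex gave 0 calls in the 61 tests (3 unadjusted, DESeq2 0 and 2), beside 0.0727% of all tests by edgeR and 0.398% by DESeq2. The interaction of genotype with index type gave 0 (6 unadjusted, and 0 with 7 under DESeq2 size factors), beside 0 of 151334 (0.0%) over all genes.

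The rest of the pathway was read from a list of 58 genes. In all nuclei 0 of 58 were called between genotypes (edgeR, 0 at unadjusted p under 0.05, DESeq2 0), 37 changes were positive and 21 negative, and the median log2 change was 0.025 against 0.001 over all genes tested. Over the 14 types 55 of the genes gave 553 tests with 0 calls (21 unadjusted, DESeq2 0 and 6). The genes with the largest values per role were Dlk1 (0.69, SE 0.36) and Jag2 (0.15) among ligands, and Psen2 (0.12) and Aph1c (0.10), subunits of the gamma-secretase that frees the receptor. Pofut1 (0.17) and Lfng (0.11) led the glycosyltransferases of the receptor, and Neurl1b (0.21) and Dtx1 (0.14) trafficking and turnover. Kat2a (-0.10) and Snw1 (-0.05) led the coactivators, Ctbp2 (0.19) and Bend6 (0.08) the corepressors, and Heyl (0.29) and Hes5 (0.13) the targets. None of these passed the test. Over the 14 types 5 of the 6 targets passed the count filter somewhere and gave 26 tests with 0 calls (1 unadjusted, DESeq2 0 and 0). Without a count filter 1 of 793 tests of the pathway list was called, L3mbtl3, a corepressor of Rbpj, in leptomeningeal fibroblasts (log2 change -1.44, edgeR adjusted p 0.0223), beside 545 of 315515 tests over all genes (0.173%).

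Maml3 was lower in Chd8het than in WT nuclei of the same index type, with the largest fitted values in excitatory types. Over all nuclei it stood at 148.6, 399.1, 178.9 and 403.3 CPM in WT and at 115.4, 215.8, 131.1 and 261.7 CPM in Chd8het libraries. Within single-indexed libraries both Chd8het values lay below both WT values, and the same held within dual-indexed libraries, while pooled over index types the genotypes overlapped. The ratio of Chd8het to WT means was 0.753 among single-indexed and 0.595 among dual-indexed libraries.

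By type, L4/5 IT neurons held 89.7, 454.5, 142.9 and 444.9 CPM of Maml3 in WT and 65.9, 239.5, 84.0 and 270.0 CPM in Chd8het libraries, a fitted log2 change of -0.75 (SE 0.11). L2/3 IT neurons held 164.2, 501.8, 212.8 and 468.2 CPM in WT and 115.5, 254.3, 146.4 and 290.8 CPM in Chd8het libraries (-0.70). L6 CT neurons held 245.4, 516.1, 256.6 and 550.8 CPM in WT and 164.8, 298.9, 177.6 and 311.3 CPM in Chd8het libraries (-0.70, SE 0.07). In these 3 types the genotypes were apart within both index types, as they also were, narrowly among dual-indexed libraries, in microglia (values above). The fitted change was -0.46 in deep IT and -0.30 in L5/6 near-projecting neurons and -0.34 in MGE and in CGE interneurons. It was closer to 0 in glia, at -0.19 in astrocytes, -0.16 in OPC, -0.13 in oligodendrocytes and in committed precursors and -0.22 (SE 0.13) in microglia, and 0.08 in endothelial cells and 0.15 in leptomeningeal fibroblasts. RNA of excitatory neurons was present in the glia, with genotype ranges that overlapped in each of these types: the summed level of 5 excitatory markers averaged 232 CPM in WT and 284.5 CPM in Chd8het astrocytes, 261 and 319.5 CPM in oligodendrocytes, 232 and 295 CPM in OPC, 448 and 515 CPM in microglia, and 254 and 239 CPM in committed precursors. Its part in the glial Maml3 values was not tested. In astrocytes those values cannot be read as glial, for the reason given with index type below. The values for oligodendrocytes and OPC are set out there too. In committed precursors that calculation, from the sums of the excitatory markers, gave 30.75 CPM in single- and 72.64 CPM in dual-indexed libraries. Their Maml3 was at 49.96 and 82.46 CPM. The genotype values of oligodendrocytes, OPC and committed precursors are thus not read as glial either. In all, the value was negative in 12 of 14 types, and in 6 of 14 the Chd8het libraries lay below WT within both index types (2.42% of all tests in the 14 types). These values chose the gene and support nothing by themselves, and the differences between types were not tested.

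**Figure D3:**
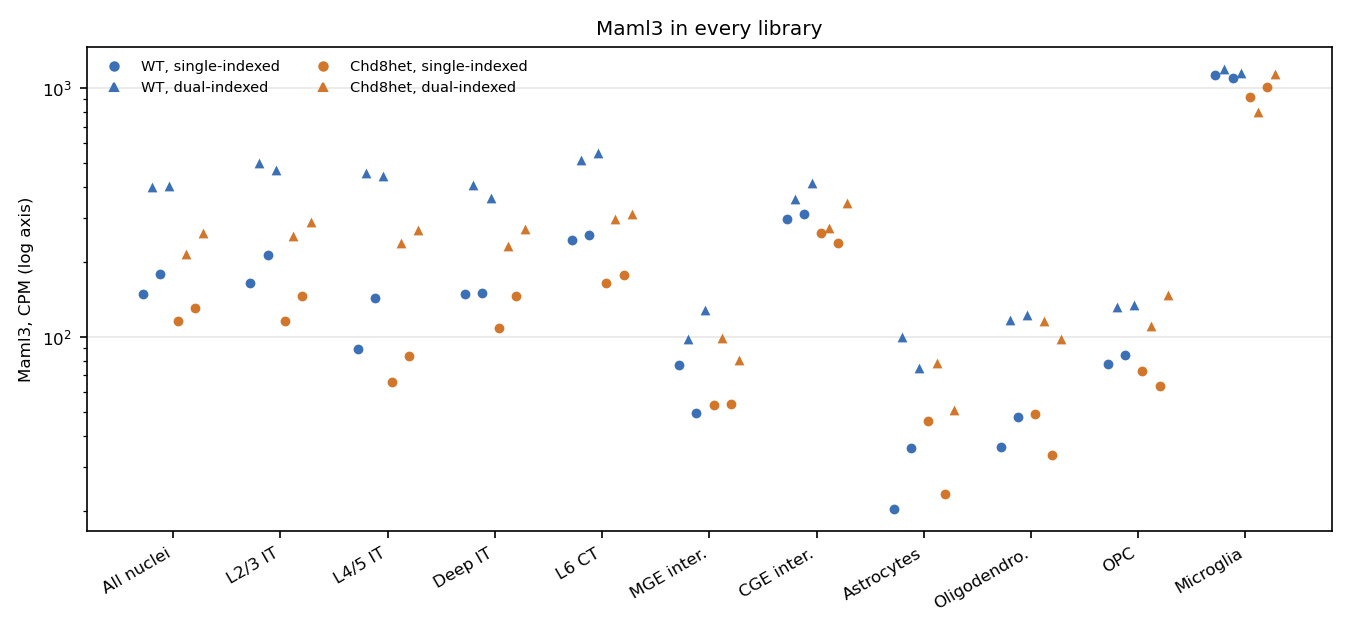
Maml3 (CPM, log axis) in each of the 8 libraries, for all nuclei and 10 cell types. Colour marks genotype (blue WT, orange Chd8het) and shape index type (circles single, triangles dual). In L4/5 IT the dual-indexed libraries reach 239.5 to 454.5 CPM against 65.9 to 142.9 CPM for the single-indexed ones, with Chd8het lower within each shape, whereas microglia keep both shapes between 802.6 and 1193 CPM.

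The paralogues were set against Maml3 within each library. Taken as the log2 CPM of Maml3 minus that of Maml1 within each library, the all-nuclei value was lower in Chd8het, with a difference of -0.37 among single-indexed and -0.82 among dual-indexed libraries. Against Maml2 the differences were -0.38 and -0.88. In excitatory neurons they were -0.48 and -0.87 against Maml1 and -0.50 and -0.87 against Maml2. Each of these 4 ratios was lower in the Chd8het library in 4 of 4 pairs. Over the 14 types 10 of the 28 ratios were lower in 4 of 4 pairs and 16 had lower Chd8het means within both index types. Among single-indexed libraries the difference was above 0 in, for example, astrocytes (0.86 against Maml1 and 0.36 against Maml2), MGE interneurons (0.22 against Maml1) and L5/6 near-projecting neurons (0.54 against Maml2). All of these ratios rest on the Maml3 values that chose the gene, and both ratios of a type share them, so they are likewise a description. The share of other genes with such an order was not counted.

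The antisense genes within Maml3 had negative genotype values too, likewise without a test. Gm20089 had a genotype log2 change of -0.95 (SE 0.14) in all nuclei and -0.69 in L4/5 IT, and Gm37229 -0.56 and -1.06. Whether reads of the one were counted for the other was not tested.

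Index type was not used to choose the members and was tested. For Maml3 this test shares its fit and its residual spread with the genotype values that chose the gene. Its p-values and its rank among genes are thus not independent of that choice. Maml3 was higher in dual-indexed libraries by 1.12 on the log2 scale in all nuclei (adjusted p 0.000151, edgeR quasi-likelihood with Benjamini-Hochberg), on means of 143.5 CPM single and 320.0 CPM dual. It was called higher in 10 of 14 types (5.84% of all tests in these types were), and in 8 of 14 all dual-indexed libraries lay above all single-indexed ones. The 10 include astrocytes, oligodendrocytes and OPC, whose values carry the limits given below. Over all genes 10.4% of tests in the 14 types were called for index type in either direction, 33.4% in all nuclei, and 7.29% had all dual-indexed libraries above. Calls for index type were thus common across the transcriptome. In L4/5 IT, where 13.1% of genes were called, the change of Maml3 was 1.89 (SE 0.11, adjusted p 2.2e-05, edgeR), the smallest p of 14099 genes, on means of 95.6 against 352.2 CPM. The number of nuclei given this type was 420 to 647 in single- and 243 to 486 in dual-indexed libraries, beside 108 to 153 and 149 to 240 for deep IT, both with overlap, and 12 to 24 and 5 to 9 for L5 ET, with none. The change of Maml3 in L4/5 IT was 1.87 with nuclei named by clusters, and in pooled excitatory neurons, which do not rest on the finer types, it was 1.27.

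The same change was 1.22 in L2/3 IT (adjusted p 0.000174), 1.19 in deep IT (0.000172), 1.21 in L5/6 near-projecting (0.017) and 0.95 in L6 CT neurons (6.7e-05, all edgeR). Among interneurons it was 0.84 in the MGE type (adjusted p 0.000272) and 0.37 in the CGE type (0.0168, both edgeR). In oligodendrocytes it was 1.42 (adjusted p 0.00124), in astrocytes 1.28 (0.0068) and in OPC 0.84 (0.000499, all edgeR), on low levels of 41.7, 31.4 and 74.9 CPM in the single-indexed libraries. Excitatory marker counts were present in these glia: the 5 markers of excitatory neurons, all detected, summed to 205 to 292 CPM in single- and 224 to 316 CPM in dual-indexed libraries in astrocytes. The sums were 219.5 to 333 and 246 to 393 CPM in oligodendrocytes, and 212 to 313 and 222 to 346 CPM in OPC, against 1025 to 1196 CPM in excitatory neurons. In astrocytes the mean sums were 254 CPM in single- and 262.5 CPM in dual-indexed libraries, beside 1130 and 1156 CPM in excitatory neurons, whose own Maml3 was at 138.7 and 346.5 CPM. Excitatory RNA in that proportion would carry 31.2 and 78.7 CPM of Maml3, and astrocytes held 31.4 and 76.0 CPM, so neither expression of Maml3 by astrocytes nor a change of it with index type can be read from these values. The same calculation, added after the values were seen, gave 33.9 and 91.1 CPM in oligodendrocytes, which held 41.7 and 113 CPM, and 32.5 and 78.5 CPM in OPC, which held 74.9 and 131 CPM. How much of the index type change in oligodendrocytes and OPC was their own was not tested. Their calls can thus not be read as changes of the glia themselves. In microglia the calculation gave 59.0 and 144 CPM, far below the level measured. In microglia, where Maml3 was highest, single- and dual-indexed means were 1040 and 1072 CPM, and the change was 0.08 (adjusted p 0.771, edgeR). Endothelial cells had 0.05 (adjusted p 0.953) and leptomeningeal fibroblasts 0.64 (adjusted p 0.181, edgeR). The antisense Gm20089 was higher in dual-indexed libraries by 1.95 in all nuclei (adjusted p 0.000146), by 3.26 in L4/5 IT (8.9e-05) and by 1.41 in microglia (0.00419, all edgeR), where Maml3 had 0.08. Gm37229 had 2.09 in L4/5 IT (adjusted p 0.00146) and -0.08 in microglia (0.873, edgeR).

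Among the other members 9 of 61 tests were called for index type by edgeR, 8 higher and 1 lower in dual-indexed libraries, beside a background of 10.4% of tests. DESeq2 called 4 of the 48 to which it gave an adjusted p (7.61% over all genes). On counts thinned to 1000 UMIs per nucleus, which leaves the number of nuclei unequal, edgeR called 2 of 35, Maml2 in OPC and Maml1 in microglia (5.39% over all genes). With 1 library left out there were 4 to 9 calls. The fits that dropped WT male 1 or WT male 2 made 4 each, beside 4.68% and 6.5% over all genes. Those that dropped WT female 2, Chd8het male 1 or Chd8het female 1 made 5 each (7.9%, 5.54% and 7.14%), those for WT female 1 or Chd8het male 2 made 7 each (7.53% and 7.54%), and that for Chd8het female 2 made 9 (11.6%). Maml2 and Notch3 in L2/3 IT, Maml2 in L6 CT and Notch3 in MGE interneurons were called in all 8 of these fits and by DESeq2. Maml2 was higher in 5 types: L6 CT neurons (0.78, adjusted p 0.00582), L4/5 IT (0.48, 0.0307), L2/3 IT (0.47, 0.00499), astrocytes (0.37, 0.0315) and OPC (0.27, 0.0434). With 1 library left out the L4/5 IT call was lost in 7 of 8 fits (all but that without Chd8het female 2), and also without a count filter and with doublets kept. Those in astrocytes and OPC were lost in 5 of 8 each, those that dropped WT male 1, WT male 2, Chd8het male 1 or Chd8het female 1 and, besides, WT female 2 for astrocytes and Chd8het female 2 for OPC, and DESeq2 called none of these 3. Notch3 was higher in MGE interneurons by 0.66 (SE 0.15, adjusted p 0.00811) and in L2/3 IT by 0.74 (0.013), and Maml1 in L2/3 IT by 0.45 (0.0296). The Maml1 call was lost in 6 of 8 fits (all but those without Chd8het female 1 or female 2), with DESeq2 and on thinned counts. Notch2 in L2/3 IT fell by 0.50 (adjusted p 0.0414, edgeR), a call lost in 6 of the 8 fits with 1 library left out (all but those without WT female 1 or Chd8het female 2), with doublets kept, with the stricter nucleus filter, with clusters and with DESeq2. Over all nuclei Notch3 (0.63, adjusted p 0.00132), Maml2 (0.39, 0.0114) and Maml1 (0.30, 0.0478, all edgeR) were called higher, beside 16.1% of all genes tested there. The call of Maml1 in all nuclei was lost without a count filter (adjusted p 0.0518) and in 6 of the 8 fits with 1 library left out, with adjusted p 0.0825 to 0.154 there, all but those without Chd8het female 1 or female 2. The call of Maml2 in all nuclei was lost without WT male 1 (adjusted p 0.0508, edgeR).

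Whether Maml3 moved with index type beyond its paralogues was put to an exact permutation test of 4 against 4 libraries, whose smallest two-sided p is 0.0286. The log2 difference Maml3 minus Maml1 was higher in dual-indexed libraries by 0.81 in all nuclei (p 0.0857, adjusted p 0.182 over 34 such tests) and by 0.99 in excitatory neurons (p 0.0571, adjusted 0.177, exact permutation). Against Maml2 it was 0.73 (p 0.0857, exact permutation) and 0.61 (p 0.143, exact permutation). Of the 34 tests 5 reached p 0.0286, in L4/5 IT, deep IT, MGE interneurons and OPC, and the smallest adjusted p was 0.177 (exact permutation). The Maml3 values of OPC carry the limit given with index type above. At least 20 tests at the smallest p would have been needed for any to pass adjustment, and the test takes no account of genotype and sex, so the lack of a pass says little. Compared within each of the 4 groups of genotype and sex, the dual-indexed library was the higher in 4 of 4 for all 4 of the differences just given, and in 4 of 4 for 20 of the 34. The differences to Maml1 and to Maml2 share the same Maml3 values. How often other genes show such an order was not counted.

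**Figure D4:**
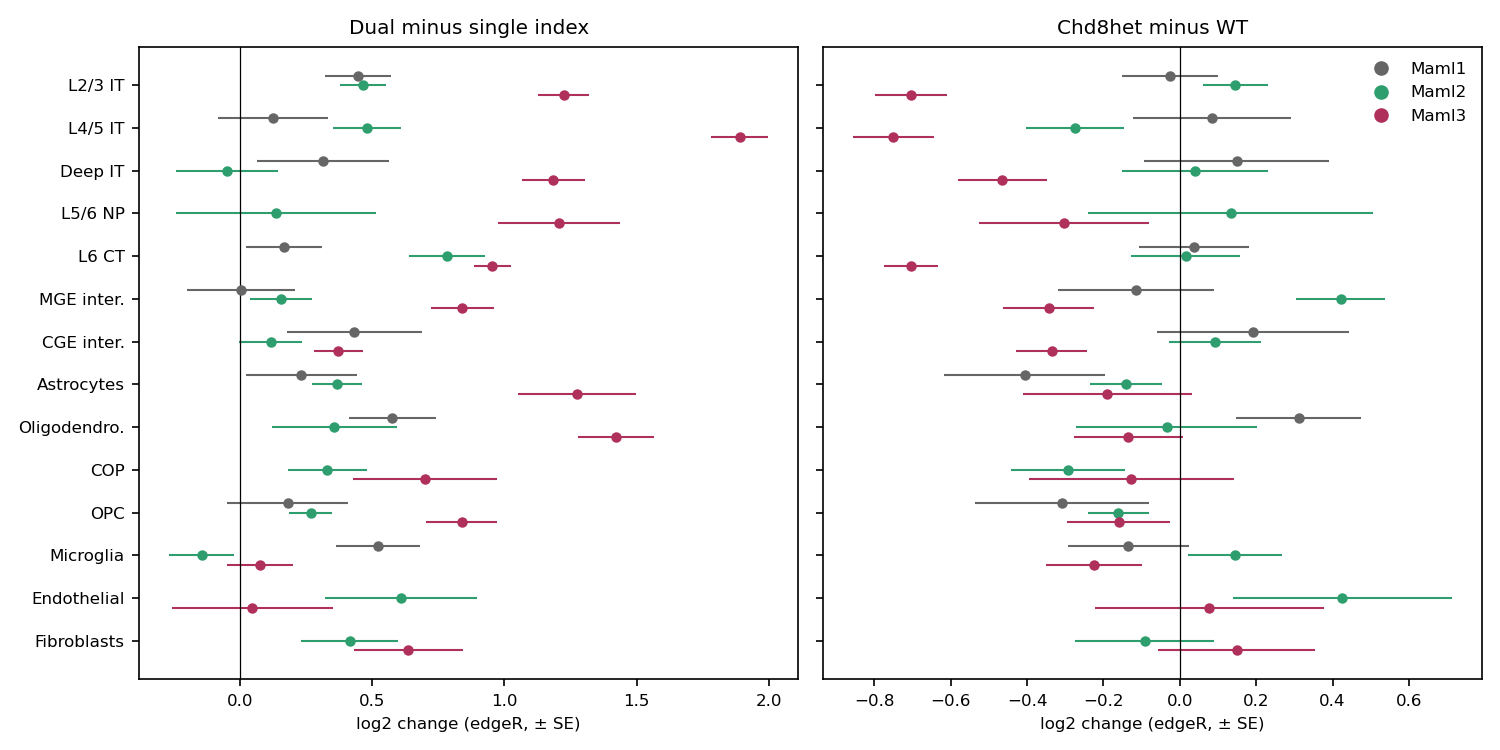
Log2 change of Maml1, Maml2 and Maml3 between index types (dual minus single) and between genotypes (Chd8het minus WT) in the 14 tested types, as fitted by edgeR; points are estimates and bars 1 SE. The index change of Maml3 runs from 0.05 in endothelial cells to 1.89 in L4/5 IT, and its genotype values are negative in 12 of 14 types, while those of Maml1 and Maml2 lie on both sides of 0.

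In the pathway list index type gave 39 calls in 553 tests (15 higher and 24 lower in dual-indexed libraries), beside the background of 10.4%, and DESeq2 made 22 in 427 (7.61% over all genes). The fits that left out 1 library each made 17 to 44 calls. The lowest counts were 17 of 554 when WT male 1 was dropped (4.68% over all genes) and 18 of 544 for Chd8het male 1 (5.54%). Next were 23 of 541 for Chd8het male 2 (7.54%) and 24 of 544 for WT female 2 (7.9%). Thinned counts gave 8 of 316 (5.39%). In each of these the share of the pathway list was below that of all genes. Hes1 was lower in OPC (log2 change -1.45, SE 0.28, adjusted p 0.00237, edgeR), where 7.81% of all genes were called for index type. Its OPC level was 22.7, 47.2, 20.9 and 55.3 CPM in the single-indexed and 7.77, 8.76, 17.5 and 16.3 CPM in the dual-indexed libraries (WT male, WT female, Chd8het male and Chd8het female), with no overlap. The share of all genes with such a gap in this direction was not counted. Hes1 was also lower in MGE interneurons (-1.04, adjusted p 0.004) and L6 CT neurons (-0.77, 0.0499, edgeR), where 17.9% and 14.8% of all genes were called in either direction. The L6 CT call held in only 2 of the 8 fits with 1 library left out (those without Chd8het male 1 or male 2) and was not made by DESeq2. Snw1, a nuclear cofactor of the receptor fragment, was called lower in 8 types. In these types 4.32% (oligodendrocytes) to 24.4% (L2/3 IT) of all genes were called for index type in either direction. Hes1 and Snw1 were picked for these sentences after their values were seen.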

How the data were processed

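The authors' deposited files hold whole-number UMI counts per gene and nucleus barcode for 8 libraries; STAR 2.7.9a, STARsolo, Cell Ranger and the build mm10 are named, without roles, in the submitters' processing notes. Annotation, strand and use of intron reads are not given in the sources used here. Members and gene lists were chosen with earlier results of these data known.

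From the 97772 deposited barcodes, nuclei with at least 500 genes and at most 5% mitochondrial UMIs were kept (82168). Scrublet, as in scanpy 1.11.5, marked 4513 doublets (5.49%), which were removed. A nucleus took a type when at least 3 markers of that type's list were detected and that list led the next by 0.1 of its markers (0.15 within neurons), so 17 types were formed. Besides these, 75 nuclei with striatal markers were left out of the types but stayed in the pooled interneurons. Counts were summed per library and type, filtered with edgeR 4.0.16 (filterByExpr, minimum count 10), scaled by TMM and fitted with the quasi-likelihood F test in a model of sex, index type and genotype, with Benjamini-Hochberg adjustment within each type and calls at adjusted p under 0.05. Log2 CPM for contrasts and ratios used a prior count of 2, and exact tests used scipy 1.17.1. The labels do not say that replicates came from separate litters, so p-values measure the spread between these 8 animals.

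Named genes were the 8 members, the 2 genes per pathway role with the largest genotype change in all nuclei, any pathway gene called for genotype, 6 targets, the 3 genes most like each of 4 members, and the genes overlapping Maml3. For pairs, libraries that share sex and replicate number were matched. Their deviations from genotype means correlated in all nuclei (r 0.396 to 0.592, and 0.208 to 0.281 with index type removed), but by type fell to 0.055 (endothelial cells), and with index type removed to -0.118 (oligodendrocytes); a paired fit is given with the alternatives. Those were DESeq2 1.42.0 (size factors, and its Wald test), no count filter, doublets kept, a stricter nucleus filter (1000 genes, 1% mitochondrial), naming by clusters, thinning to 1000 UMIs per nucleus (4761 nuclei left out), no index type term, and leave-one-out over the libraries. The fit was tested on simulated data with known changes. Coordinates came from GENCODE M21 and promoter windows from RefSeq.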

Additional observations from a re-analysis of the deposited data

Results flagged for a closer look

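The 6 results below compare the index type change of Maml3 between cell types and were chosen after the data had been seen. In each, the log2 CPM of Maml3 in one type minus that in the other was taken within each library and compared between 4 single- and 4 dual-indexed libraries. The pairs were picked with the values of each type in view, so the exact permutation p of 0.0286 in each, the smallest such a design can give, was largely set by the choice, and the values are a description. The dual minus single change was larger in excitatory neurons than in microglia by 1.258 (library differences averaged -2.93 single and -1.68 dual). For L4/5 IT against microglia it was larger by 1.846, and for L6 CT against microglia by 0.929. Excitatory neurons exceeded interneurons by 0.691, with library differences of 0.047 in single- and 0.738 in dual-indexed libraries. Within excitatory neurons, L4/5 IT exceeded L6 CT by 0.917 and L2/3 IT by 0.658. In all 6 the ranges of the single- and dual-indexed libraries did not overlap. Microglia, with 0 of the excitatory markers among their leading genes, still held 413 to 593 CPM of the 5 excitatory markers. Replicate number, and possibly litter, cannot be told apart from index type. A check of 40 groups of 4 libraries for a single stray library found none, where chance alone would give about 5%.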

How the results depend on the processing

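The count of genotype calls over the 14 types was 17, against 66 with the DESeq2 Wald test, 545 without a count filter, 6 with naming by clusters and 1 without an index type term. Leaving out 1 library gave 6 to 118: 118 without Chd8het female 2, 30 and 31 without WT female 1 and female 2, 7 without WT male 2, and 6 without WT male 1 or Chd8het female 1. With the replicate block for pairs it was 19, and the 7 members other than Maml3 had 0 calls either way. Index type calls (15743) were 8876 with DESeq2 Wald, 23773 with clusters and 4072 on thinned counts, and 7088 to 17280 with 1 library left out (7088 without WT male 1, 8321 without Chd8het male 1, 9780 without WT male 2). Interaction calls (0) became 127 without a count filter. The Maml3 genotype change in all nuclei ran from -0.676 to -0.522 with 1 library left out, and was -0.681 without an index type term. In microglia its index type change ran from -0.019 to 0.161, below 0 only without Chd8het female 2. Of the other members, thinned counts turned the all-nuclei genotype change of Notch1 (-0.044), Notch2 (-0.023), Notch3 (0.222), Rbpj (-0.147) and Maml2 (-0.019), kept doublets that of Notch4 (0.005), and the stricter nucleus filter that of Maml1 (0.009). With 1 library left out these ran from -0.071 to 0.059 (Notch3), -0.302 to 0.236 (Notch4), -0.06 to 0.041 (Rbpj), -0.108 to 0.072 (Maml1) and -0.088 to 0.1 (Maml2). The index change turned for Notch1 (0.105) and Notch2 (0.055) under the stricter filter and for Notch2 (0.185) on thinned counts. The Notch4 contrast passed with clusters (1.124), with a prior count of 0.5 (1.762) and without WT female 1, over a leave-one-out range of 0.787 to 1.194. With clusters the Maml1 contrast turned (0.064) and the Maml3 contrast passed (0.604). Excitatory neurons minus microglia kept 1.154 to 1.383 with 1 library left out. Levels moved in CPM with doublets kept for Maml3 (844.6), Maml1 (90.6) and Notch2 (75.8) in microglia and Maml2 (1120) and Notch1 (43.7) in OPC. With clusters Maml3 (1227), Rbpj (192) and Notch2 (122) moved in microglia, and on thinned counts Maml3 (1219) and Notch2 (119) there and Notch1 (68.8) in OPC. The cause was not tested. Vascular types, with few UMIs, limit Notch1, Notch3 and Notch4 and the target genes read there.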

Other observations

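Rbpjl, a paralogue of Rbpj known from the pancreas and named here after its values were seen, was concentrated in OPC, at 20.9 ± 3.81 CPM (n = 8 libraries) against 0.555 CPM in all nuclei, and gated OPC held 173 of its 317 UMIs. On GRCm38 it lies at chr2:164403141-164415448 on the plus strand and shares 2020 bases with Matn4 (chr2:164389393-164405160, minus strand), a matrix protein gene at 171 ± 31.5 CPM in OPC. Without knowing whether strand was used in counting, reads of the 2 genes in that stretch cannot be told apart.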
